A study of Mus musculus with 14 samples.

Results

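The nuclear genes for the subunits of the 5 oxidative phosphorylation (OXPHOS) complexes were followed in whole-kidney RNA of 14 female mice. The genes were picked by symbol alone, as the GENCODE names of NADH dehydrogenase, succinate dehydrogenase, cytochrome bc1, cytochrome c oxidase and ATP synthase subunits. Of 81 matching protein-coding entries among 56980 genes, 80 had more than 10 counts over all libraries, as did 22339 genes in total. These 80 comprised 38 genes named for complex I, 4 for complex II, 9 for complex III, 11 for complex IV and 18 for complex V. The entry left out was a second *Atp5po* record with 0 counts, and the lowest total among those kept was 706 counts for *Ndufa4l2*, so that no gene stood near the limit. No member had 3 counts or fewer in any library.

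All mice were outbred CD-1 females labelled as wild type (WT), and kidneys were taken at 18 weeks of age. The labels divide them into 4 term nondiabetic (T-ND), 4 term diabetic (T-D), 3 preterm nondiabetic (PT-ND) and 3 preterm diabetic (PT-D) mice. Term mice were born naturally and stayed with their own mothers. Preterm mice were delivered by Caesarean section before term and raised by foster dams that drank acepromazine around fostering, so that preterm birth, Caesarean delivery, fostering and acepromazine cannot be told apart here. Both diabetic groups received repeated low-dose streptozotocin (STZ), a toxin of the insulin-secreting beta cell, as young adults, and the nondiabetic groups none. Some PT-D mice and no T-D mice had a second round of STZ, and which PT-D libraries come from them is not given in the sources used here. Each library is 1 kidney of 1 mouse, made from poly(A) RNA without strand information. A whole kidney mixes tubule, vessel, glomerular and immune cells, and fewer cells of a type cannot be told apart from less RNA per cell.

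Oxidative phosphorylation makes most of the ATP of the kidney tubule, which spends it on sodium reabsorption, and the proximal tubule is among the cells richest in mitochondria. Complexes I and II pass electrons from NADH and succinate to ubiquinone, complex III passes them to cytochrome c, and complex IV to oxygen. Proton pumping by complexes I, III and IV drives complex V, the ATP synthase. All subunits of complex II and most subunits of the other complexes are encoded in the nucleus, whereas a small core set is encoded in mitochondrial DNA, so both genomes have to supply matched parts.

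The libraries held 16697246 to 28673176 gene counts (median 18765582). T-D replicate 4 stood apart from the other T-D libraries and raises the T-D means and SDs given here. It had the fewest genes with a count (19589), the most unmapped reads (1352337) and the largest share of reads in rows that name no gene (28.6%). The other libraries had 20312 to 22818 genes with a count, with the highest numbers in PT-D replicates 2 and 3, and 21.1 to 25.9% in such rows. The part of these differences in the OXPHOS values was not tested. The 80 members together took 3.07, 2.98, 2.78 and 2.89% of the counts in the T-ND libraries and 2.91, 3.43, 3.61 and 5.05% in T-D replicates 1 to 4. The share was 2.64, 3.21 and 3.80% in the PT-ND libraries and 2.53, 2.42 and 2.12% in the PT-D libraries. All 3 PT-D values lay below every other library, T-D replicate 4 was the highest, and PT-ND replicate 1 was below the T-ND libraries. Relative to each member's mean in T-ND, the median member stood at log2 0.03, 0.25, 0.32 and 0.88 in T-D replicates 1 to 4, at -0.18, 0.21 and 0.48 in PT-ND replicates 1 to 3, and at -0.19, -0.33 and -0.56 in PT-D replicates 1 to 3. In PT-D replicate 3, 78 of 80 members were under the T-ND mean, and in T-D replicate 4, 77 were above it.

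Summed by complex, the members showed the same order in each of the 5 complexes (values are CPM, counts of a gene scaled to the TMM-corrected library total). Complex I gave 6545 ± 325 (SD) in T-ND, 8600.1 ± 2343 in T-D, 7468 ± 1529 in PT-ND and 5154 ± 553 in PT-D. Its PT-D libraries gave 5627, 5289 and 4546, against 6547, 7749.9, 8139.9 and 11964 in T-D. Complex II, the smallest set, gave 2335, 2304, 2265 and 2281 in T-ND, 2166, 2439, 2705 and 3226 in T-D, 2289, 2401 and 2670.0 in PT-ND and 1919, 1987 and 1774 in PT-D. Its T-ND libraries were nearly level, and each PT-D library was below each of the others. Complex III averaged 4539 ± 1018 in T-D and 2855 ± 310.5 in PT-D, complex IV 6755 ± 1949 and 3656 ± 532, and complex V 14984 ± 3422 and 10021 ± 635. By library, complex IV was at 5086, 6039.9, 6326 and 9569 in T-D and 4183, 3664 and 3120.0 in PT-D, so that T-D replicate 4 sets much of the T-D mean and SD. The ratio of complex IV to complex II was 2.18, 1.84 and 1.76 in PT-D, 2.35, 2.48, 2.34 and 2.97 in T-D, 1.73, 2.34 and 2.58 in PT-ND and 2.15, 2.11, 1.98 and 2.11 in T-ND. The T-D ratios were thus above all T-ND ratios, with T-D replicate 4 at the top, whereas those of PT-D spread from below to just above the T-ND range.

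**Figure D1:**
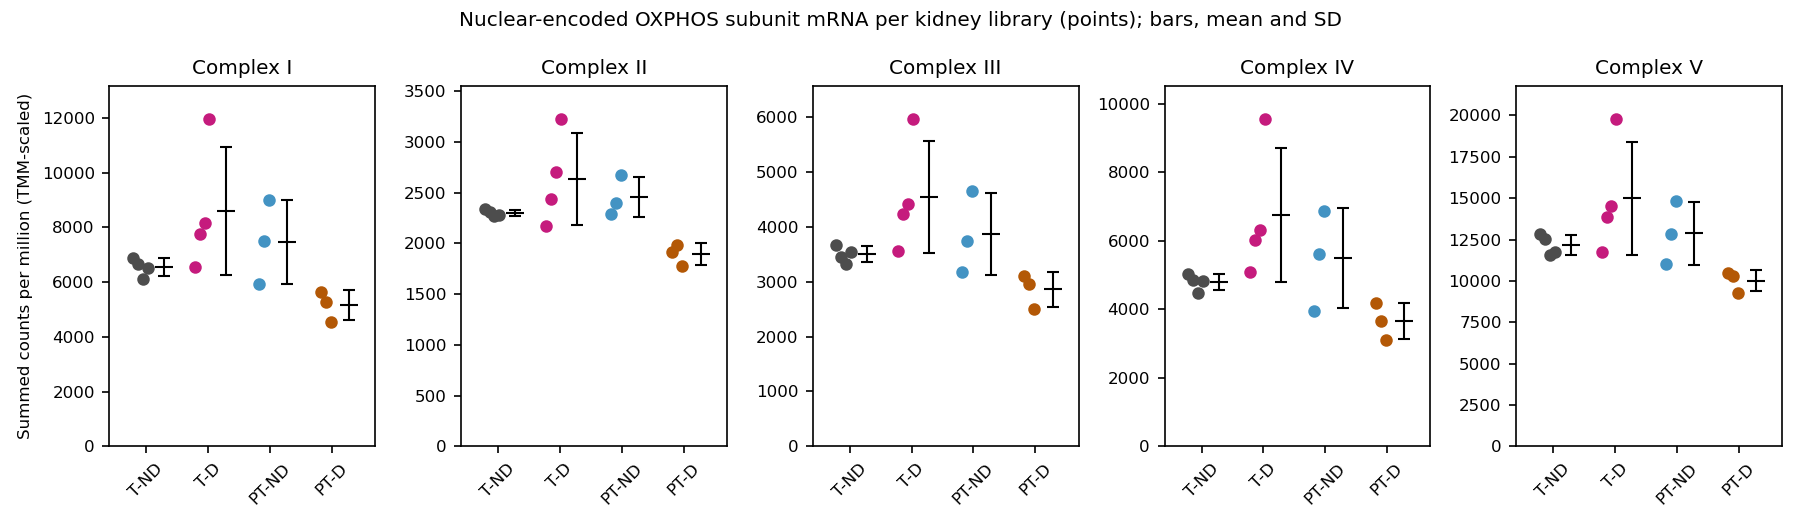
Each point is 1 kidney library, with the summed TMM-scaled CPM of the nuclear-encoded subunits of 1 complex on the vertical axis, which starts at 0, and the 4 groups on the horizontal axis. The bars give the mean and SD of a group; the 3 PT-D libraries of complex II, at 1919, 1987 and 1774, sit below every other library, and T-D replicate 4 is the highest point in each panel.

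Levels were compared between genes only per kilobase of 1 transcript per gene (GENCODE canonical), since counts scale with length. By mean CPM per kilobase the order opened with *Atp5f1b* (the beta subunit of the F1 head, where ATP is made) at 2068, *Cox6a1* at 1513, *Cox8a* at 1268, *Cox6c* at 1240.5 and *Atp5f1a*, the alpha subunit, at 1194. *Ndufa4*, named as a complex I gene but found in complex IV, followed at 1079. *Ndufb2* (1072 counts in total), *Ndufa4l2*, a paralog of *Ndufa4* that is induced by hypoxia, and *Atp5po* had the fewest counts per kilobase. For some members the counting sets the level. Reads that fall on genes of both strands were discarded, and summing both strand columns gave 9.29 times the counts for *Atp5if1*, 9.66 times for *Atp5mg*, 3.60 times for *Ndufa11*, 2.69 times for *Cox5a* and 2.41 times for *Ndufb6*. For *Ndufb2* and *Atp5po* it gave 1.29 and 1.63 times. Exons of other genes overlap 10.4% and 19.7% of the exonic bases of these 2 genes. The part of this overlap in their low counts was not tested.

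The 150 bases before the start of the GENCODE canonical transcript of 7 genes are given, 5′ to 3′ on the strand of the gene (GRCm39). Capitals mark a motif of NRF1 (GCGCATGC) or of the ETS/GABP family (CCGGAAG) on either strand, and these are factors known to drive respiratory chain genes. *Ndufb8* (chr19:44543882-44544031) and *Sdha* (chr13:74498437-74498586), the members with the most negative and with almost no difference in PT-D, hold neither motif in these bases. The other 5 were picked, 1 for each complex, because they hold a motif there, so they do not represent the members of their complexes.
Ndufb8: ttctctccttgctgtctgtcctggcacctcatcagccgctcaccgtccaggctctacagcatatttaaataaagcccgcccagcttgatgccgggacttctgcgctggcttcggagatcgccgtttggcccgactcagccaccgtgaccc
Ndufa13: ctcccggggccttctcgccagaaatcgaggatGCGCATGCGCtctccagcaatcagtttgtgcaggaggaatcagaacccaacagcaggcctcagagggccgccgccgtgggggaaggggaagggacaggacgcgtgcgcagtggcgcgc
Sdha: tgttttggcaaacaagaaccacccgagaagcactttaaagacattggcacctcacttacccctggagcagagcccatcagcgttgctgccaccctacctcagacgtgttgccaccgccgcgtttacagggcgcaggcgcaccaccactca
Sdhd: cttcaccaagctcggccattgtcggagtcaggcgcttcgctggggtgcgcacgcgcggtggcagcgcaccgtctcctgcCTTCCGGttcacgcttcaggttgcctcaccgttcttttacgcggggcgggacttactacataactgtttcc
Uqcr11: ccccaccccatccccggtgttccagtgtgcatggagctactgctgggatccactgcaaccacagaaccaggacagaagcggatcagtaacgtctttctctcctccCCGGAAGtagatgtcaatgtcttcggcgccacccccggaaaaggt
Cox6a1: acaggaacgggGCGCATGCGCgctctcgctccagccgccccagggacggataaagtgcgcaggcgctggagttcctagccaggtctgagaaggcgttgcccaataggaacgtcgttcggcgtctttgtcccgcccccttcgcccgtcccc
Atp5f1e: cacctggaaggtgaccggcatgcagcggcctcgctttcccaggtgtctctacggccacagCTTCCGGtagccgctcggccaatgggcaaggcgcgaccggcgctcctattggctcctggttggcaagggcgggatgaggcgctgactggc
The other start regions are chr8:70355873-70356022 for *Ndufa13*, chr9:50515125-50515274 for *Sdhd*, chr10:80242677-80242826 for *Uqcr11*, chr5:115487041-115487190 for *Cox6a1* and chr2:174305907-174306056 for *Atp5f1e*, all on the minus strand. The NRF1 letters overlap themselves on the opposite strand in *Ndufa13* and *Cox6a1*. Within 250 bases before to 50 after the start, the NRF1 letters occurred in 8 of 80 members (10%) and in 4.11% of all 16165 promoters in the table. The ETS/GABP letters occurred in 12 (15%) against 12.8%, and those of YY1 (AANATGGCG) in 1 (1.25%) against 2.88%. Any of these 3 motifs occurred in 18 of 80 members (22.5%) against 18.2%, so most members hold none. A TATA box (TATAAA) occurred in 9 (11.2%) against 9.35%. These are matches of letters, and binding was not measured.

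In term mice given STZ, the OXPHOS members stood above those of untreated term mice without any passing the test. The comparison asks what STZ does in mice born at term. In T-D against T-ND, 78 of 80 members had a positive log2 fold change, with a median of 0.41 (median of all genes -0.02), and 0 were called by edgeR at an adjusted p under 0.05, where 0.0673% of all genes were. DESeq2 called 8, against 2.91% of the genes to which it gave an adjusted p (the base of every DESeq2 share here), and 36 had an unadjusted p under 0.05, against 11.8% of all genes. Every T-D library was above every T-ND library for 14 members, and 2.9% of all genes showed this. The shift rested in part on 1 library: without T-D replicate 4 the median was 0.20. The members nearest to a call were in complex I. *Ndufb1*, an accessory subunit, was at 47.0, 34.4, 44.2 and 47.8 CPM in T-ND and at 61.5, 80.9, 58.8 and 99.3 in T-D, and its groups did not overlap, with a log2 fold change of 0.77 ± 0.19 (SE; edgeR adjusted p = 0.163). *Ndufb9*, another accessory subunit of the membrane arm, followed with 0.74 ± 0.20 (SE; edgeR adjusted p = 0.203). In the other complexes *Atp5mg* had 0.72 (adjusted p = 0.205), *Cox7c* 0.58 (adjusted p = 0.234), *Uqcr11* 0.51 (adjusted p = 0.236) and *Sdhb* 0.29 (adjusted p = 0.576) (all by edgeR).

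Without STZ, the members of preterm mice stood slightly above those of term mice. In PT-ND against T-ND the median member stood at log2 0.18 (all genes 0.00), with 73 positive and 7 negative values, and 0 members were called by edgeR (0.0809% of all genes) or by DESeq2 (1.82% of its genes). An unadjusted p under 0.05 was reached by 2 members (10.7% of all genes), and PT-ND was above T-ND without overlap for 3 (5.48% of all genes). Without PT-ND replicate 3 the median was 0.01, and without PT-ND replicate 1 it was 0.32, so the sign of the median held while its size followed these 2 libraries. The negative values were those of *Ndufb2*, *Ndufs1*, *Sdha*, *Uqcrc2*, *Atp5f1a*, *Atp5mc1* and *Atp5po*, from -0.17 for *Atp5po* upward, with adjusted p (edgeR) between 0.809 and 0.999. With an offset for transcript length and GC content the median was 0.04, and 28 members were negative. Other protein-coding genes with transcripts up to 700 bases had a median of 0.28, against 0.27 for the members of that length.

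Preterm diabetic kidneys had lower measured levels of almost every subunit mRNA than term diabetic kidneys, and nearly all of these differences missed the edgeR threshold. This comparison addresses preterm birth in the setting of STZ. In PT-D against T-D, 79 of 80 members had a negative log2 fold change, with a median of -0.81 against 0.06 for all genes. Every PT-D library was below every T-D library for 76 members, and 10.6% of all genes showed this. The test across all genes called 1 member (*Ndufb8*) at an adjusted p under 0.05 by edgeR, where 0.193% of all genes were called and 0.0583% were called lower. By unadjusted p, 75 members were under 0.05 (22.3% of all genes), and DESeq2 called 69 (15.2% of its genes). With all 14 libraries in a joint fit 46 were called (1323 of 22339 genes), and with no filter on low counts 59 (1694 of 28421 genes). With a suffix that 5 library names carry as a covariate 0 were called, and with an offset for transcript length and GC content 0 were called and the median was -0.41. Without T-D replicate 4 the median was -0.59 with 4 members called, and without PT-D replicate 3 it was -0.68 with 0 called. All complexes took part, with medians of -0.81 for complex I, -0.68 for II, -0.76 for III, -0.85 for IV and -0.83 for V. The members outside this pattern were *Ndufs1*, *Sdha* and *Ndufb2*, described with their complexes, together with *Ndufa4l2*, whose groups overlapped.

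Against term mice without STZ, the preterm diabetic kidneys also had lower measured levels of most subunit mRNAs. In PT-D against T-ND, which combines both exposures, 79 members had a negative log2 fold change, with a median of -0.35 against 0.03 for all genes. By edgeR 2 members were called, both lower, namely *Ndufb8* and *Cox7a2l*, where 2.76% of all genes were called and 1.15% were called lower. With a log2 fold change below -1 required as well, 0 members were called (1.45% of all genes in either direction). DESeq2 called 22 (16.1% of its genes), and 51 members had an unadjusted p under 0.05 (24.3% of all genes). The groups did not overlap for 43 members, all with PT-D lower, against 11.2% of all genes. Leaving out T-ND replicate 3 raised the calls to 9, with 2356 of 22298 genes called in that fit. Leaving out T-ND replicate 1 or 4 or PT-D replicate 2 left 0, and leaving out T-ND replicate 2, PT-D replicate 1 or PT-D replicate 3 left 1. The 3 comparisons of PT-D share its 3 libraries, and 3 comparisons share T-ND, so that their values are not independent of each other.

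Within preterm mice, 18 subunits of complexes I, II, IV and V fell with STZ. In PT-D against PT-ND, 78 members had a negative log2 fold change (median -0.57, all genes 0.05), and 18 fell at an adjusted p under 0.05 by edgeR, 0 rose, where 12.9% of all genes were called and 5.78% were called lower. With a log2 fold change below -1 required as well, *Ndufb8* and *Atp5if1* were left (4.95% of all genes in either direction). The groups did not overlap for 40 members (15.8% of all genes with PT-D lower). Among other protein-coding genes with a mean of at least 20 CPM the share called was higher than among all genes. Of 6705 such genes 1698 were called. For transcripts up to 700 bases it was 20 of 65, against 6 of 22 members, from 700 to 1000 bases 74 of 181 against 5 of 16, and from 1000 to 1500 bases 183 of 461 against 3 of 11. The 18 were *Ndufb8*, *Ndufs7*, *Ndufa7*, *Ndufs8*, *Ndufb11*, *Ndufv3*, *Ndufs4*, *Ndufa6*, *Ndufb10* and *Ndufc2* of complex I, *Sdhb* and *Sdhd* of complex II, *Cox7a2l*, *Cox6a1* and *Cox8a* of complex IV, and *Atp5mc2*, *Atp5if1* and *Atp5pd* of complex V. No member of complex III was called, where 4 of 9 had no overlap between the groups and 5 an unadjusted p under 0.05 by edgeR (29.1% of all genes). The count depended on single libraries. Without PT-ND replicate 1, the PT-ND library with the least OXPHOS mRNA, 53 members were called (3453 of 22267 genes). Without PT-ND replicate 2, PT-ND replicate 3 or PT-D replicate 3 it was 1, without PT-D replicate 2 it was 2 and without PT-D replicate 1 it was 19. The latter fits called 856 to 2753 of all genes. The median of the members ran from -0.75 (without PT-ND replicate 1) to -0.36 (without PT-ND replicate 3). With the length and GC offset 3 members were called (1904 of 22303 genes) and the median was -0.20. The joint fit of 14 libraries called 7 (2102 of 22339 genes), and libraries without the name suffix gave 0 (956 of 22177 genes). DESeq2 called 43 (26.7% of its genes).

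In the main fit the response to STZ differed between birth groups for 28 members, and other fits called from 0 to 67. The interaction, which is the STZ difference in preterm mice minus that in term mice over all 14 libraries, had a median of log2 -1.01 over the members (all genes 0.07) and was negative for 78. The 28 called by edgeR were all negative (35% of the members), where 6.23% of all genes were called and 3.41% were called with a negative value. They comprised 15 of 38 in complex I, 2 of 4 in complex II, 2 of 9 in complex III, 4 of 11 in complex IV and 5 of 18 in complex V. Of 6705 other protein-coding genes with a mean of at least 20 CPM, 762 were called. For transcripts up to 700 bases it was 23 of 65, against 13 of 22 members. From 700 to 1000 bases it was 60 of 181 against 5 of 16, and from 1000 to 1500 bases 118 of 461 against 3 of 11. By DESeq2 67 members were called (19.5% of its genes), and 75 had an unadjusted p under 0.05 by edgeR (24.5% of all genes). The 2 STZ comparisons behind it had opposite median signs, 0.41 in term and -0.57 in preterm mice. Leaving out single libraries moved the count from 0 (without PT-D replicate 3 or PT-ND replicate 3) to 55 (without T-D replicate 1, where 1703 of 22339 genes were called). It was 1 without PT-D replicate 2 or PT-ND replicate 2, 5 without T-ND replicate 1, T-ND replicate 4 or T-D replicate 3, 6 without T-ND replicate 3, 9 without T-ND replicate 2, 17 without T-D replicate 4, 19 without PT-D replicate 1 and 48 without PT-ND replicate 1. Without T-D replicate 4 and PT-ND replicate 1 together, an alternative chosen after seeing the data, the median was -0.93 and 56 were called (1671 of 22337 genes). With the length and GC offset the median was -0.47 and 2 were called (445 of 22339 genes). A term for replicate number left 5 (668 genes), and the name suffix as a covariate left 11 (1016 genes). Replicate term and offset together left 0, as did libraries without the suffix. By mean log2 level, T-D was the highest of the 4 groups for 78 of 80 members and PT-D the lowest for 78. Every PT-D library was below all the others for 34 members, and 5.37% of all genes showed this.

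**Figure D2:**
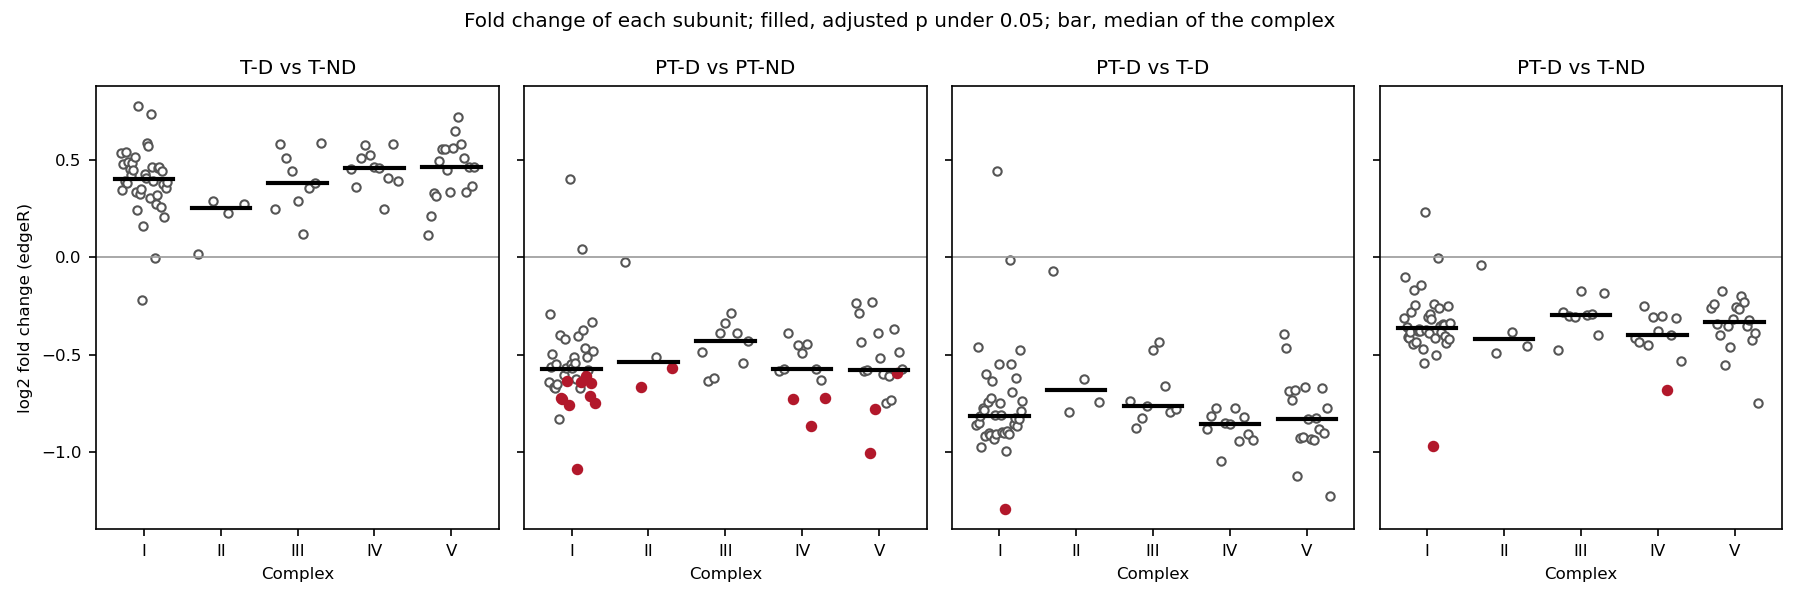
Each point is the edgeR log2 fold change of 1 subunit gene (vertical axis) in 1 of 4 comparisons (panels), by complex I to V (horizontal axis), and filled points have an adjusted p under 0.05. The bars are medians per complex, which lie above 0 in T-D vs T-ND and below 0 in the 3 panels with PT-D, and 18 filled points appear in PT-D vs PT-ND.

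Complex I takes electrons from NADH through its peripheral arm and pumps protons through its membrane arm. *Ndufb8*, an accessory subunit of the membrane arm that is widely used as a marker of assembled complex I, was the member called in every comparison that involved PT-D. Its gene lies at chr19:44537011-44543939 (GENCODE, GRCm39, minus strand). It was at 137, 124, 146 and 149.7 CPM in T-ND, 138, 173, 153 and 233 in T-D, 105, 151 and 199.6 in PT-ND and 68.0, 67.7 and 79.1 in PT-D. All 3 PT-D values were below every other library, with a gap to the lowest of the others, PT-ND replicate 1. The log2 fold change was -0.97 ± 0.13 (SE; edgeR adjusted p = 0.0147) against T-ND, -1.29 ± 0.20 (SE; edgeR adjusted p = 0.031) against T-D and -1.08 ± 0.21 (SE; edgeR adjusted p = 0.0115) against PT-ND, and the interaction was -1.41 ± 0.29 (SE; edgeR adjusted p = 0.0219). In T-D against T-ND it was 0.31 ± 0.17 (SE; edgeR adjusted p = 0.498). The call against PT-ND stood in 6 of 6 fits that left out 1 library. Against T-ND it stood in 4 of 7 (adjusted p 0.00788 to 0.0641), and against T-D in 3 of 7 (0.0123 to 0.102). With the length and GC offset the adjusted p was 0.0493 against T-ND, 0.0662 against T-D and 0.0583 against PT-ND, so that only the call against T-ND stood. The suffix covariate ended the call against T-D, and a term for replicate number ended that against T-ND. All 3 calls and that of the interaction ended among libraries without the suffix.

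The 7 core subunits of the peripheral arm carry the flavin and the iron-sulfur clusters. Of these, *Ndufs7* and *Ndufs8*, which hold the last clusters before ubiquinone, fell in PT-D against PT-ND, with -0.71 (adjusted p = 0.0267) and -0.64 (adjusted p = 0.0343) on the log2 scale (edgeR). *Ndufs7* was at 229, 249 and 320.2 CPM in PT-ND and 186, 162 and 139 in PT-D. *Ndufs1*, the largest core subunit of this arm, did not follow the others. It was at 237, 212, 253 and 239 CPM in T-ND, 229.6, 235, 257 and 227 in T-D, 249, 214 and 223 in PT-ND and 214, 253 and 240.0 in PT-D, so that all 4 groups overlapped. Its log2 fold changes were -0.01 ± 0.16 (SE; edgeR adjusted p = 0.974) against T-D and 0.04 ± 0.15 (SE; edgeR adjusted p = 0.881) against PT-ND. *Ndufv1*, which binds NADH and the flavin, had -0.48 (adjusted p = 0.18) in PT-D against T-D, *Ndufv2* -0.79 (adjusted p = 0.123) and *Ndufs3* -0.69 (adjusted p = 0.129).

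The accessory subunits of complex I stabilise the enzyme and are mostly short. Among them *Ndufb11* fell in PT-D against PT-ND by edgeR, with log2 -0.76 (adjusted p = 0.0354), *Ndufv3* with -0.75 (adjusted p = 0.0371), *Ndufa7* with -0.72 (adjusted p = 0.0316), *Ndufa6* with -0.72 (adjusted p = 0.044), *Ndufb10* with -0.63 (adjusted p = 0.0456), *Ndufc2* with -0.64 (adjusted p = 0.0469) and *Ndufs4*, often mutated in Leigh syndrome, with -0.61 (adjusted p = 0.0419) (edgeR). *Ndufa13* and *Ndufb9* were looked up because the study lists them among genes downregulated in PT-D against T-D. It used DESeq2 with an adjusted p under 0.05 and a log2 fold change below -1. *Ndufa13* was at 201, 259.7, 308 and 409 CPM in T-D and 168, 160.3 and 122 in PT-D without overlap, with -0.97 ± 0.24 (SE; edgeR adjusted p = 0.0834). *Ndufb9* was at 71.8, 92.0, 74.3 and 125 and 55.4, 44.9 and 36.6, also without overlap, with -0.99 ± 0.23 (SE; edgeR adjusted p = 0.0716). Neither passed the threshold in this edgeR fit, which is not the test of the study, and the interaction was called for *Ndufa13*, at -1.23 ± 0.33 (SE; edgeR adjusted p = 0.0415). *Ndufa4* was at 517, 621, 634 and 1138 in T-D and 402, 417 and 342 in PT-D, with -0.91 ± 0.26 (SE; edgeR adjusted p = 0.0956). Its paralog *Ndufa4l2* was at 1.19 to 4.08 CPM over all libraries, which gave -0.83 ± 0.38 (SE; edgeR adjusted p = 0.172) against PT-ND. *Ndufb2* had the sign opposite to its complex in all 6 comparisons, at 0.44 ± 0.42 (SE; edgeR adjusted p = 0.569) against T-D, from 4.65, 4.46, 3.05 and 1.08 CPM in T-D and 4.82, 4.91 and 3.79 in PT-D.

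Complex II is the succinate dehydrogenase of the TCA cycle. Its flavoprotein *Sdha* stood apart from the other 3 subunits. *Sdha* (chr13:74469359-74498436, minus strand) was at 790.1, 802, 873 and 811 CPM in T-ND, 776, 894, 906 and 774 in T-D, 835, 814 and 791 in PT-ND and 747, 841 and 815 in PT-D, and all groups overlapped. Its log2 fold change was -0.07 ± 0.17 (SE; edgeR adjusted p = 0.851) against T-D and -0.02 ± 0.15 (SE; edgeR adjusted p = 0.942) against PT-ND. *Sdhb*, the iron-sulfur subunit, was at 594, 600.1, 547 and 563 CPM in T-ND, 533, 599, 685 and 1034 in T-D, 572, 645 and 747 in PT-ND and 455, 433 and 348 in PT-D. Each PT-D library of *Sdhb* was below every library of the other groups. It fell against PT-ND, with -0.67 ± 0.17 (SE; edgeR adjusted p = 0.0295), and stood at -0.79 ± 0.24 (SE; edgeR adjusted p = 0.103) against T-D. The membrane anchors *Sdhc* and *Sdhd* had PT-D libraries at 400.1, 417 and 339 and 316, 296 and 271 CPM, against 483, 537 and 627 and 399, 406 and 505 in PT-ND. *Sdhd* fell against PT-ND with -0.57 (adjusted p = 0.0389), and *Sdhc* was at -0.51 (adjusted p = 0.0637) (edgeR). The interaction was called for *Sdhb* and *Sdhd*, at -0.97 (adjusted p = 0.0498) and -0.86 (adjusted p = 0.0436).

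Complex III passes electrons from ubiquinol to cytochrome c through *Uqcrfs1*, the Rieske iron-sulfur protein, and *Cyc1*, cytochrome c1. *Cyc1* was at 672, 618, 543 and 581 CPM in T-ND, 551, 625, 706 and 1021 in T-D, 502, 625 and 708 in PT-ND and 476, 439 and 394 in PT-D. The PT-D libraries were below every other library, and the log2 fold change was -0.47 ± 0.13 (SE; edgeR adjusted p = 0.0718) against T-ND and -0.74 ± 0.23 (SE; edgeR adjusted p = 0.104) against T-D. The core proteins *Uqcrc1* and *Uqcrc2* had smaller values, at -0.47 (adjusted p = 0.173) and -0.43 (adjusted p = 0.207) against T-D. The short subunits *Uqcr10* and *Uqcr11* were the 2 members of this complex whose interaction was called. *Uqcr11* was at 186, 151, 190.4 and 201 in T-ND and 221, 287, 273 and 271 in T-D, without overlap, and at 154, 221 and 311 in PT-ND and 177, 140.3 and 129 in PT-D, which overlapped. Its interaction was -1.15 ± 0.29 (SE; edgeR adjusted p = 0.0346) and that of *Uqcr10* -1.23 ± 0.32 (SE; edgeR adjusted p = 0.0395).

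Complex IV reduces oxygen, and its nuclear subunits surround a core made in the mitochondrion. *Cox7a2l* (chr17:83765970-83824759, minus strand), which joins complexes III and IV into supercomplexes, was the second member called against T-ND. It was at 146, 166, 124 and 142 CPM in T-ND, 136, 133, 162 and 264 in T-D, 127, 176 and 192 in PT-ND and 93.8, 102 and 76.5 in PT-D, with all PT-D libraries below all others. The log2 fold change was -0.68 ± 0.15 (SE; edgeR adjusted p = 0.0471) against T-ND, -0.86 ± 0.19 (SE; edgeR adjusted p = 0.0162) against PT-ND and -0.94 ± 0.25 (SE; edgeR adjusted p = 0.0875) against T-D. The call against T-ND was close to the threshold and stood in 1 of 7 fits that left out 1 library (without T-ND replicate 3). *Cox6a1* was at 773, 732, 765 and 771 CPM in T-ND, 775, 983, 1108 and 1734 in T-D, 699, 908 and 1167 in PT-ND and 637, 571 and 472 in PT-D. It fell against PT-ND with -0.72 (adjusted p = 0.0438), as did *Cox8a* with -0.72 (adjusted p = 0.046), and the interaction was called for *Cox6a1*, *Cox8a*, *Cox7c* and *Cox7a2l*. *Cox4i1*, the largest nuclear subunit, stood at -0.88 (adjusted p = 0.0923) against T-D, and the 11 subunits ranged there from -1.04 to -0.77.

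Complex V consists of the F1 head, the c ring in the membrane, the peripheral stalk and small membrane subunits. The 5 subunits of the head had a median log2 fold change of -0.68 in PT-D against T-D and 0 were called, with *Atp5f1b* at -0.47 (adjusted p = 0.216) and *Atp5f1a* at -0.39 (adjusted p = 0.268). *Atp5f1b* was at 3731, 4398, 4376 and 5699.6 CPM in T-D and 3174, 3473 and 3264 in PT-D. The 3 genes of the c ring, which encode the same mature protein, had a median of -0.92, and *Atp5mc2* fell against PT-ND with -0.78 ± 0.18 (SE; edgeR adjusted p = 0.0195). Of the 4 stalk genes, *Atp5pd* fell against PT-ND with -0.59 (adjusted p = 0.0471), and *Atp5po* was at 7.89, 6.99 and 5.65 CPM in PT-D and 15.1, 22.8, 11.4 and 14.6 in T-D, with -1.22 ± 0.26 (SE; edgeR adjusted p = 0.0685). *Atp5if1* (chr4:132257215-132262823, minus strand) is the inhibitor that stops the enzyme from running backwards and is no part of the catalytic complex. It was at 36.1, 25.8, 29.9 and 31.1 CPM in T-ND, 46.7, 49.7, 30.4 and 55.9 in T-D, 24.4, 54.2 and 48.1 in PT-ND and 22.1, 16.1 and 24.9 in PT-D. PT-D and T-D did not overlap. *Atp5if1* fell against PT-ND, with -1.005 ± 0.27 (SE; edgeR adjusted p = 0.0362), and had an interaction of -1.58 ± 0.36 (SE; edgeR adjusted p = 0.0281). These values rest on the few reads outside the overlap with its antisense neighbour. With both strands counted the fold change against PT-ND was -0.86 (adjusted p = 0.0158). The call against PT-ND stood in 1 of 6 fits that left out 1 library.

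**Figure D3:**
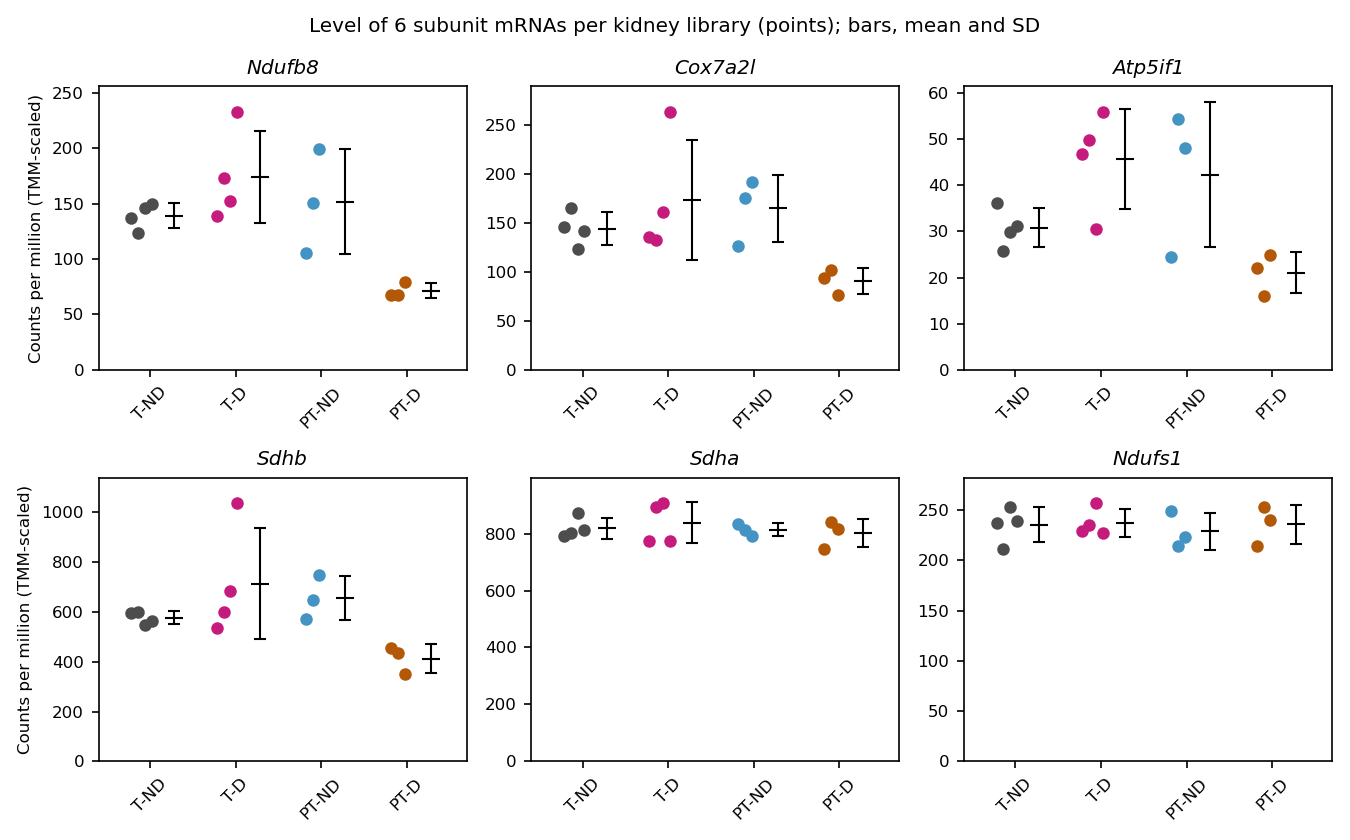
Each point is the TMM-scaled CPM of 1 gene in 1 kidney library (vertical axis, from 0), by group (horizontal axis), and bars give mean and SD. *Ndufb8*, *Cox7a2l* and *Sdhb* have their 3 PT-D libraries below all the others, whereas *Sdha* and *Ndufs1* overlap across all 4 groups.

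The members were short transcripts, and short transcripts of other genes differed between the groups as well. The canonical transcripts of the 80 members had a median length of 1090 bases, against 3473 for 6705 other protein-coding genes with a mean of at least 20 CPM. Among those other genes, the median log2 fold change in PT-D against PT-ND was -0.65 for transcripts up to 700 bases (65 genes), -0.60 up to 1000, -0.49 up to 1500, -0.33 up to 2000, -0.15 up to 3000, 0.06 up to 5000 and 0.34 beyond. The members had -0.63 up to 700 bases and -0.58 up to 1000, close to the other genes of those lengths. Between 2000 and 5000 bases they had -0.47 and -0.49 in the bins split at 3000, where the other genes stood at -0.15 and 0.06. In PT-D against T-D the other genes ran from -0.76 for the shortest bin to 0.28 for the longest, and the members from -0.90 to -0.63 over the bins with 9 or more members. In T-D against T-ND the other genes ran from 0.38 to -0.07, with the members at 0.51 in the shortest bin and at 0.26 between 3000 and 5000 bases. *Sdha* and *Ndufs1*, with little difference, have canonical transcripts of 3073 and 3613 bases, and *Ndufb8* has 682. Across the 80 members Spearman's rho between length and log2 fold change was 0.38 in PT-D against PT-ND, 0.47 against T-D and -0.51 in T-D against T-ND (description across genes). With an offset for transcript length and GC content fitted in each library, the medians were -0.41 in PT-D against T-D (0 called), -0.20 against PT-ND (3 called), -0.16 against T-ND (1 called) and 0.23 in T-D against T-ND (0 called). Over all genes these fits called 35 of 22294, 1904 of 22303, 473 of 22310 and 18 of 22275. The interaction then had a median of -0.47 with 2 members called (445 of 22339 genes). In PT-ND against T-ND the median with the offset was 0.04 with 0 members called (8 of 22254 genes).

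**Figure D4:**
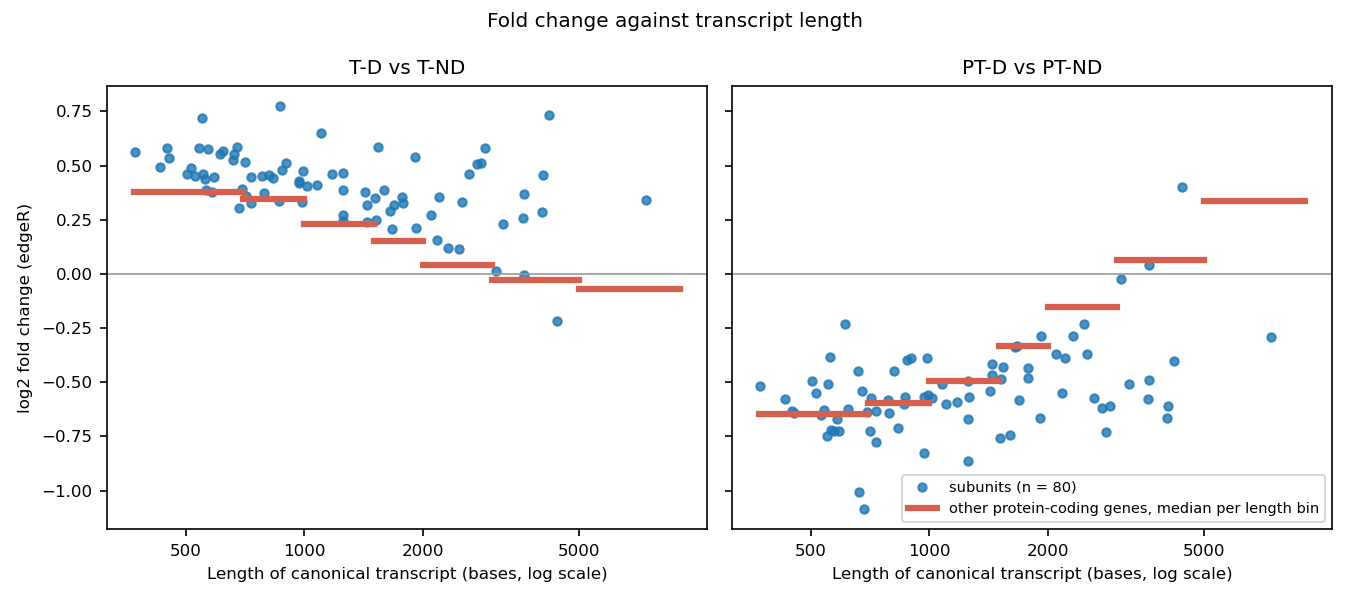
Points are the 80 subunits, with the length of the canonical transcript in bases on the horizontal log axis and the edgeR log2 fold change on the vertical axis, and thick lines are medians of other protein-coding genes per length bin (the longest bin is open-ended). In both panels the lines move with length, from 0.38 to -0.07 in T-D vs T-ND and from -0.65 to 0.34 in PT-D vs PT-ND, and most of the subunits above 2000 bases lie beyond them.

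The 13 mRNAs of the mitochondrial genome, which encode the core of complexes I, III, IV and V, were not lower as a group in PT-D. By edgeR 0 of 13 were called in any of the 6 comparisons, with 0 to 3 at an unadjusted p under 0.05, and their median log2 fold change was 0.53 in PT-D against T-ND, 0.25 against T-D, 0.26 against PT-ND and 0.32 in T-D against T-ND. Their sum was 158698, 134139 and 100197 CPM in PT-D, 131255, 103193, 142849 and 127691 in T-D, 107882, 129138 and 111110.0 in PT-ND and 116882, 116694, 78504 and 86638 in T-ND, with overlap between all groups. The ratio of this sum to that of the nuclear members was 6.28, 5.54 and 4.72 in PT-D, 4.51, 3.01, 3.96 and 2.53 in T-D, 4.09, 4.02 and 2.92 in PT-ND and 3.80, 3.92, 2.83 and 3.00 in T-ND. All 3 PT-D ratios were above every other library. Their mean of 5.51 ± 0.779 (SD) compares with 3.39 ± 0.553 in T-ND. With these genes left out of the library size and the test, 1, 19 and 2 members were called in PT-D against T-D, PT-ND and T-ND.

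**Figure D5:**
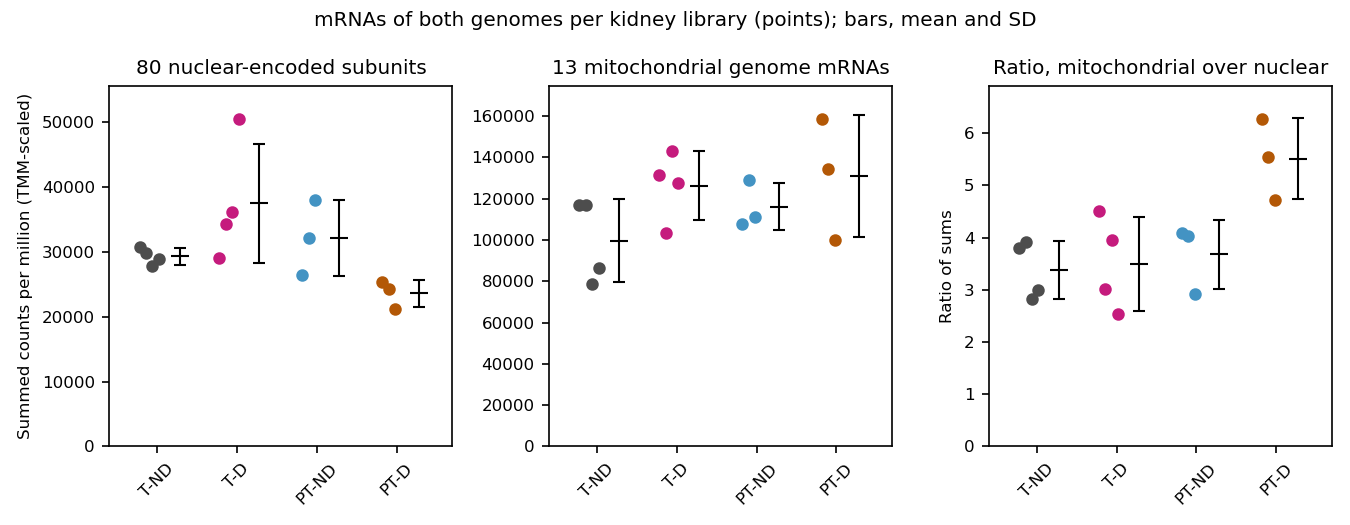
Each point is 1 kidney library, by group on the horizontal axis, with the summed TMM-scaled CPM of the 80 nuclear members, of the 13 mitochondrial genome mRNAs and the ratio of the sums on the vertical axes, all from 0. Bars are mean and SD; in the ratio the lowest PT-D library, at 4.72, is above the highest of the other groups, at 4.51.

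Genes that build or surround the complexes were taken from lists of genes with known roles. Of 54 measured assembly factors, 15 fell and 1 rose in PT-D against PT-ND (median -0.49), 3 fell against T-ND and 0 were called against T-D, and 12 had a called negative interaction. Of all genes, 5.78% were called lower against PT-ND, 1.15% against T-ND and 3.41% in the interaction. Those that fell included *Ndufaf8* (complex I assembly) with -1.16 (adjusted p = 0.0085), *Coa3* (complex IV) with -1.03 (adjusted p = 0.00976), *Tmem70* (complex V) with -0.78 (adjusted p = 0.0112) and *Uqcc3* (complex III) with -0.83 (adjusted p = 0.0221). The 1 that rose was *Lrpprc*, which stabilises mitochondrial mRNAs, with 0.54 (adjusted p = 0.0369) (edgeR). The 16 TCA cycle genes had a median of -0.14 against PT-ND, and *Idh2* and *Idh3g* fell. Of 15 import, carrier and membrane genes, 3 fell there, *Tomm20*, *Tomm22* and *Phb1*. Ribosomal proteins of the mitochondrion (77 genes) had a median of -0.57 with 29 called, all lower, and those of the cytosol (83 genes) had a median of -0.65 with 29 lower and 1 higher. The medians of both ribosomal lists were thus close to that of the OXPHOS members in the same comparison. Of 8 isoforms and subunits outside the naming rule, 0 were called against PT-ND. Among 17 regulators of mitochondrial biogenesis, *Esrra* and *Esrrb*, nuclear receptors that activate OXPHOS genes, fell against PT-ND with -0.67 (adjusted p = 0.0204) and -1.16 (adjusted p = 0.0225), and *Pprc1*, a coactivator of the PGC-1 family, rose with 1.01 (adjusted p = 0.00768). *Ppargc1a*, the best known coactivator, stood at -0.23 (adjusted p = 0.409), *Nrf1* at -0.06 (adjusted p = 0.858) and *Tfam*, which maintains mitochondrial DNA, at -0.41 (adjusted p = 0.079).

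Markers of the cell types in the kidney were read beside these values. The defining markers of the proximal tubule were all present (12 of 12 in every library), with 0 called in any comparison and sums of 12355 to 17382 CPM in T-ND, 12976 to 17061 in T-D, 17153 to 18249 in PT-ND and 13167 to 16880.0 in PT-D. The ranges of PT-D and T-D overlapped, and those of PT-D and PT-ND did not. The 9 loop and distal tubule markers summed to 4874 to 5523 in T-ND, 2981 to 4489.6 in T-D, 3586 to 4641 in PT-ND and 2389 to 5281 in PT-D, and 1 of them (*Umod*) fell in PT-D against T-ND. The 8 collecting duct markers gave 753 to 1246, 647 to 773, 738 to 1136 and 389 to 932 in the same order, with 2 lower in PT-D against PT-ND. The 5 podocyte markers were at 496 to 658 CPM in PT-D, against 241 to 340.4 in T-ND, 149.5 to 475 in T-D and 269 to 464 in PT-ND, with 5 of 5 called against T-ND, 4 of 5 against PT-ND and 0 of 5 against T-D. The 9 endothelial markers were at 538 to 716 in PT-D, 440.1 to 458 in T-ND, 246 to 473 in T-D and 344 to 565 in PT-ND, with 4 called higher against PT-ND, 2 against T-ND and 0 against T-D. T-D replicate 4, the library with the most OXPHOS mRNA, had the lowest podocyte and endothelial sums of all 14, at 149.5 and 246 CPM. Of 6 tubular injury genes 5 rose in PT-D against PT-ND, 2 rose against T-ND and 0 were called against T-D, with sums of 3355 to 3965 in PT-D, 2027 to 2125 in PT-ND, 1797 to 2627 in T-ND and 2379.8 to 4252 in T-D. Leukocyte sums (10 markers, 2 of them at 0 in some library) were 178 to 197 in PT-D and 122 to 295 in T-D, 197 to 201 in PT-ND and 127 to 213 in T-ND, with 2 called higher against PT-ND and 1 against T-ND. Stromal and mural sums (8 markers, 1 at 0 in some library) were 159.6 to 323, 105 to 214, 144 to 249.7 and 152 to 165, with *Pdgfrb* called higher in both. Blood markers (4 measured of 5) reached 74.6 to 989.6 in T-D and 111 to 266 in PT-D, 11.01 to 121 in PT-ND and 22.4 to 519.6 in T-ND, with 0 called. The part of cell composition in the OXPHOS values was not tested.

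The names of 5 libraries carry a suffix a whose meaning the labels do not give (PT-D 1, PT-ND 2, T-D 1 and both T-ND 1 and T-ND 2). Among libraries without it, the member medians were -1.06 in PT-D against T-D, -0.65 against PT-ND, -0.41 against T-ND, 0.57 in T-D against T-ND and 0.25 in PT-ND against T-ND, with 0 members called in each. Libraries with the suffix are too few, at 1 or 2 a group, to be compared on their own. With the suffix as a covariate, 0, 16, 4, 0 and 0 members were called in the same comparisons. Over all genes it was 23 of 22294, 2712 of 22303, 976 of 22310, 20 of 22275 and 47 of 22254.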

How the data were processed

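The deposited files hold whole-number read counts per gene, which the authors made with STAR gene counting on GRCm39 with GENCODE M36 annotation; the version of STAR is not given in the sources used here. The unstranded column was used, in which reads on overlapping genes (6.86 to 8.09% of the uniquely mapped reads) are dropped. Rows that name no gene (21.1 to 28.6%) were left out. Gene symbols, lengths, positions and start sites came from GENCODE M39, where 56236 of 56980 identifiers matched. Promoter bases were cut from GRCm39 around the start of the canonical transcript. Genes with a total above 10 counts were tested by edgeR (version 4.0.16, R 4.3.3, limma 3.58.1), with TMM scaling, quasi-likelihood tests and Benjamini-Hochberg adjustment over all genes. Each comparison was fitted on its own groups, and the interaction on all 14 libraries. Values are TMM-scaled CPM, averaged with SD over libraries. Length bins used genes with a mean of at least 20 CPM. Alternatives were DESeq2 (1.42.0), RLE scaling, no filter, a joint fit, library-name and replicate terms, a length and GC offset, both strand columns summed, and leaving out each library. The members and lists were chosen with earlier results of these data known. Members were named when called, when among the 2 smallest p of a complex, when opposite in sign to their complex, when among the 3 highest per kilobase, or for their role or low count; Ndufv1, Ndufv2, Ndufs3, Uqcrc1 and Cox4i1 were named after their values were seen. A p-value sets a group difference against the spread between mice of a group, which is estimated with information from all genes. Litter was not a term in the fits. The analysis steps were tested on simulated data.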

Additional observations from a re-analysis of the deposited data

Results flagged for a closer look

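The difference between the STZ responses of preterm and term mice was tested by the interaction, and 28 members had an adjusted p under 0.05 by edgeR, all with a more negative response in preterm mice. Of all genes, 6.23% were called and 3.41% were called with a negative value. In complex I the interaction (log2) was -1.41 for *Ndufb8*, -1.15 for *Ndufv3*, -1.17 for *Ndufs7*, -1.20 for *Ndufa1*, -1.07 for *Ndufa2*, -1.26 for *Ndufa7*, -1.23 for *Ndufa13*, -0.98 for *Ndufb10*, -1.13 for *Ndufb11*, -1.19 for *Ndufa6*, -1.36 for *Ndufb1*, -1.16 for *Ndufc1*, -1.05 for *Ndufa3*, -1.15 for *Ndufb6* and -1.21 for *Ndufb7*. In complex II the interaction (log2) was -0.86 for *Sdhd* and -0.97 for *Sdhb*. In complex III the interaction (log2) was -1.15 for *Uqcr11* and -1.23 for *Uqcr10*. In complex IV the interaction (log2) was -1.23 for *Cox7c*, -1.32 for *Cox6a1*, -1.13 for *Cox8a* and -1.13 for *Cox7a2l*. In complex V the interaction (log2) was -1.58 for *Atp5if1*, -1.26 for *Atp5mk*, -1.49 for *Atp5mg*, -1.24 for *Atp5mc2* and -1.21 for *Atp5mj*. The adjusted p of these members lay between 0.0219 for *Ndufb8* and 0.0498 for *Sdhb*. The count went to 0 without PT-D replicate 3 or PT-ND replicate 3, to 2 with the length and GC offset, and to 55 without T-D replicate 1. Over all genes these fits called 76 of 22338, 113 of 22339, 445 of 22339 and 1703 of 22339.

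Single libraries stood far from the other 3 of their group for 3 members. *Atp5mc3*, a c-ring gene, was at 921.6 CPM in T-ND replicate 1, *Ndufa6* at 458.6 CPM in T-D replicate 4, and *Ndufs8* at 202.9 CPM in T-ND replicate 3, with a gap to the nearest library of 0.850, 0.848 and 0.890 of the range of the group. These pass Dixon's 95% limit for 4 libraries, 118 groups of 4 were examined, and chance alone flags about 1 in 20.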

How the results depend on the processing

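Leaving out 1 library moved the members called from 0 to 9 in PT-D against T-ND, 0 to 4 against T-D, 1 to 53 against PT-ND and 0 to 55 in the interaction, and 0 stayed called in the other comparisons. Over all genes, the same fits called 28 to 2356, 26 to 241, 856 to 3453 and 76 to 1703 in the same order. The medians of the members ran from -0.46 to -0.25, -0.95 to -0.59, -0.75 to -0.36 and -1.17 to -0.78, and from 0.20 to 0.50 in T-D against T-ND and 0.01 to 0.32 in PT-ND against T-ND. For PT-D against T-ND, T-D and PT-ND and for the interaction, DESeq2 called 22, 69, 43 and 67 members, and 8 in T-D against T-ND. Without a count filter 59, 48 and 43 were called against T-D, PT-ND and in the interaction. The joint fit of 14 libraries called 1, 46 and 7 in the 3 PT-D comparisons. The suffix covariate left 4 against T-ND, 0 against T-D and 11 in the interaction, and libraries without the suffix left 0 in the 3 PT-D comparisons and in the interaction (median -1.29). The length and GC offset left 1, 0, 3 and 2 (medians -0.16, -0.41, -0.20 and -0.47). With a fold threshold, 0 were called against T-ND and 2 against PT-ND. Leaving out T-D replicate 4 and PT-ND replicate 1, chosen after seeing the data, gave 56. The causes were not tested, beyond the fewer libraries in some fits.

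The labels do not say whether replicate numbers pair the mice. Deviations of same-numbered libraries from their group means had a median correlation of -0.132 (19 pairs, 3 over 0.1), against 0.0201 for other pairs. With 3 or 4 libraries a group, this cannot show whether mice shared a litter. The study used litter mates as nondiabetic controls, and litters are not given in the sources used here. With a replicate block, 0 members were called against T-ND, 11 against PT-ND and 5 in the interaction, and with block and offset 0, 0, 4 and 0 in the 3 PT-D comparisons and the interaction (medians -0.15, -0.34, -0.19 and -0.46). Over all genes the block alone called 73 of 22310, 2946 of 22303 and 668 of 22339. With block and offset it was 76 of 22310, 39 of 22294, 2202 of 22303 and 173 of 22339.

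Of 2792 values under the alternatives, 66 changed sign, all small differences with an adjusted p of at least 0.716 and at most 0.41 on the log2 scale. With the suffix covariate these were *Ndufa4l2* 0.057 (PT-D against T-ND), *Sdha* -0.0098 (T-D against T-ND) and *Uqcrc2* 0.016 (PT-ND against T-ND). With libraries without the suffix these were *Ndufa4l2* 0.41 (PT-D against T-ND), *Sdha* 0.026 (PT-D against PT-ND) and *Atp5f1a* 0.029, *Atp5mc1* 0.038, *Uqcrc2* 0.099 (PT-ND against T-ND). With the length and GC offset these were *Ndufa4l2* 0.039, *Sdha* 0.020 (PT-D against T-ND), *Cox7a2l* -0.013, *Ndufs1* 0.042 (T-D against T-ND), *Ndufs1* -0.033 (PT-D against PT-ND), *Cox6a1* -0.011, *Ndufs1* 0.027, *Sdha* 0.029, *Uqcrc2* 0.0078 (PT-ND against T-ND) and *Ndufs1* -0.087 (the interaction). With replicate block and offset these were *Sdha* 0.036 (PT-D against T-ND), *Cox7a2l* -0.020, *Ndufs1* 0.044 (T-D against T-ND), *Ndufs1* -0.033 (PT-D against PT-ND), *Cox6a1* -0.0059, *Ndufb2* 0.088, *Ndufs1* 0.058, *Sdha* 0.043, *Uqcrc2* 0.011 (PT-ND against T-ND) and *Ndufs1* -0.087 (the interaction). With both strands summed these were *Ndufb2* 0.0031 (T-D against T-ND) and *Atp5po* 0.030, *Uqcrc2* 0.025 (PT-ND against T-ND). With DESeq2 these were *Ndufs1* 0.018 (T-D against T-ND) and *Ndufs1* -0.0055 (the interaction). With RLE these were *Ndufs1* 0.017 (T-D against T-ND) and *Ndufs1* -0.0052 (the interaction). With all 14 libraries in one fit these were *Ndufs1* 0.011 (T-D against T-ND). Leaving out 1 library gave ranges across 0 of *Ndufa4l2* -0.39 to 0.10 (PT-D against T-ND), *Sdha* -0.077 to 0.0020 (PT-D against T-ND), *Cox7a2l* -0.015 to 0.36 (T-D against T-ND), *Ndufb2* -0.43 to 0.076 (T-D against T-ND), *Ndufs1* -0.049 to 0.047 (T-D against T-ND), *Sdha* -0.028 to 0.064 (T-D against T-ND), *Ndufs1* -0.012 to 0.11 (PT-D against PT-ND), *Sdha* -0.058 to 0.026 (PT-D against PT-ND), *Atp5f1a* -0.060 to 0.0085 (PT-ND against T-ND), *Atp5po* -0.56 to 0.11 (PT-ND against T-ND), *Ndufb9* -0.011 to 0.43 (PT-ND against T-ND), *Ndufs1* -0.13 to 0.0055 (PT-ND against T-ND), *Sdha* -0.054 to 0.0098 (PT-ND against T-ND), *Uqcrc2* -0.052 to 0.034 (PT-ND against T-ND) and *Ndufs1* -0.021 to 0.10 (the interaction).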
